A study of Homo sapiens with 6 samples.

Results

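The 10 genes described here encode cytokines of the interleukin 1 (IL-1) family, the interleukin 6 (IL-6) family and the colony-stimulating factors, together with a receptor chain for each interleukin family. They are IL1A, IL1B, IL6, IL11, LIF, CSF1, CSF2, CSF3, IL6ST and IL1R1, and they were chosen by name, with earlier results of these data known. All 10 were found among the 65198 gene rows of the expression table. Of these genes IL1A fell to the largest extent in cells with a hairpin against HOTAIR, LIF, CSF2 and IL6ST fell as well, and IL11 and CSF1 rose.

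Expression was measured by RNA sequencing in a pair of derivatives of the human line MDA-MB-231, which came from a basal-like cancer of the breast. The shHOTAIR cells carried a tetracycline-inducible short hairpin RNA directed at HOTAIR, a long non-coding RNA, and the shCtrl cells carried an inducible hairpin of scrambled sequence. Cells of both kinds received 1 µg/ml doxycycline for 96 h, so the drug was shared by both groups, and 3 repeats of each gave 6 libraries. The labels name 1 derivative per group, so each test sets repeats of a single derivative against those of another, and a difference between the lines that is unrelated to HOTAIR cannot be told apart from one due to the hairpin.

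IL-1α and IL-1β, the products of IL1A and IL1B, bind the same receptor, which consists of IL1R1 and the accessory chain IL1RAP and signals through MYD88 and IRAK kinases to NF-kappaB. IL-6, IL-11 and LIF each use a receptor chain of their own together with the shared chain gp130, encoded by IL6ST, which activates JAK kinases and STAT3. CSF1, CSF2 and CSF3, also called M-CSF, GM-CSF and G-CSF, act mainly on cells of the myeloid lineage, and tumor cells are a known source of all 3.

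Levels are given as FPKM, fragments scaled to the length of the transcript and the size of the library, which can be compared between genes. Summed over all rows, FPKM was 1621000 to 1821000 in shHOTAIR libraries and 2224000 to 2570000 in shCtrl libraries. Scale factors by the median of ratios, from tested genes above 0 in every library, were 0.986 to 1.003 in shHOTAIR and 1.008 to 1.017 in shCtrl. The cause of the difference in sums was not tested. The deposited table gives no depth, but low values fell on steps, and taking 1 step as 1 fragment implied about 35800000 to 43200000 fragments per shHOTAIR library and 25800000 to 32000000 per shCtrl library. The hairpin's target could not serve as a check of the labels. HOTAIR was listed at 0, 0 and 0.0113 FPKM in shHOTAIR and at 0, 0.0128 and 0.0132 FPKM in shCtrl, all below the 0.0287 to 0.0481 FPKM that 3 fragments would give. The cell line's label was checked against markers. CD44 averaged 480 FPKM in shHOTAIR and 475 FPKM in shCtrl, and the mesenchymal marker VIM fell to 393 FPKM in shHOTAIR, against 948 FPKM in shCtrl (limma adjusted p = 0.000616). VIM lies on chromosome 10, where its 50 nearest tested protein-coding genes had a median log2 change of -0.76. With such regional values subtracted in each library, the log2 change of VIM went from -1.27 to -0.51 (limma adjusted p = 0.00786). The epithelial keratins went the other way, with KRT8 at 240.5 FPKM in shHOTAIR and 141.5 FPKM in shCtrl (adjusted p = 0.0127 in limma) and KRT18 at 232 FPKM in shHOTAIR and 150.3 FPKM in shCtrl (0.00706). ERBB2 averaged 19.5 FPKM in shHOTAIR and 21.4 FPKM in shCtrl, EPCAM and ESR1 did not exceed 0.0957 FPKM, and PGR was listed at 0 in all 6 libraries. Of 8 leukocyte markers, 6 stayed below 1 FPKM in every library, and the summed level of the list, most of it from CD68, was 16.5 to 20 FPKM in shHOTAIR and 21.7 to 22.9 FPKM in shCtrl. Of 6 fibroblast markers 4 and of 5 endothelial markers 4 stayed below 1 FPKM throughout, with summed levels for fibroblasts of 4.44 to 5.68 FPKM in shHOTAIR and 2.63 to 3.34 FPKM in shCtrl, and for endothelium of 2.23 to 3.00 FPKM in shHOTAIR and 1.59 to 1.97 FPKM in shCtrl. In the fibroblast list COL1A1 had the highest mean, at 3.51 FPKM in shHOTAIR and 1.33 FPKM in shCtrl (limma adjusted p = 0.00572). PDGFRB, the other fibroblast marker tested, went the other way, at 0.9995 FPKM in shHOTAIR and 1.096 FPKM in shCtrl (limma adjusted p = 0.840). Most of the endothelial sum came from KDR, at 2.29 FPKM in shHOTAIR and 1.44 FPKM in shCtrl (limma adjusted p = 0.0842). The part of any of these markers in the results below was not tested.

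Promoter sequences of 7 of the 10 genes were matched in RefSeq (build GRCh38.p14), and 4 are printed because the contrasts between IL1A and IL1B and between IL11 and IL6 are among those described below. IL1A and IL1B lie 55.8 kb apart on chromosome 2, and IL6 and IL11 are ligands of the same receptor chain. Each line holds the 250 bases before the start annotated in RefSeq, 5′ to 3′ on the strand of the gene. That start can differ from the gene spans given below, which come from GENCODE 29. The IL6 window lies inside the span of its gene, and those of IL1A and IL1B lie partly inside. The windows are chr2:112784494-112784743 (minus strand) for IL1A, chr2:112836780-112837029 (minus) for IL1B, chr7:22726950-22727199 (plus) for IL6 and chr19:55370464-55370713 (minus) for IL11. Capitals mark matches to 5 motifs searched on both strands, which were the NF-kappaB motif, AP-1 (TGANTCA), C/EBP (TTGCNNAA), STAT (TTCNNNGAA) and the TATA motif (TATAAA).
IL1A: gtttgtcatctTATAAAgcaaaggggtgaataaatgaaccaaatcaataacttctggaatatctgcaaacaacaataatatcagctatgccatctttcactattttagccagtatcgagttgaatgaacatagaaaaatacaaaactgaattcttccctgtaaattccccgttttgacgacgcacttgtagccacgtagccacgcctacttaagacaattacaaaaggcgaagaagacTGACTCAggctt
IL1B: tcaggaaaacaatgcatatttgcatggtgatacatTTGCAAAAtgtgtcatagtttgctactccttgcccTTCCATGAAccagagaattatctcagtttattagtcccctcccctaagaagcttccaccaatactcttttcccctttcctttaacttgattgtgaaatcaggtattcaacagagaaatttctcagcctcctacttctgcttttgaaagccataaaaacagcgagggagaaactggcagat
IL6: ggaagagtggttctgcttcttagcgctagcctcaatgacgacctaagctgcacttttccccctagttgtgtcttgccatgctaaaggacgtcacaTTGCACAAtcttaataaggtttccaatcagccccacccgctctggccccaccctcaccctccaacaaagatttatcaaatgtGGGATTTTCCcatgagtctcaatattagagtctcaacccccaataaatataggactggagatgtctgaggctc
IL11: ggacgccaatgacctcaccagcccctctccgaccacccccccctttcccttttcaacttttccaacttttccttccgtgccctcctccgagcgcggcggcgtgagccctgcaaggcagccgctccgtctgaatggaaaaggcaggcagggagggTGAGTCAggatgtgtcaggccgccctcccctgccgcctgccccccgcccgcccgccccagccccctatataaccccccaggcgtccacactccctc

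The window of IL1A held an AP-1 match at -12 to -6 from the start and a TATA match at -239 to -234. That of IL1B held a C/EBP match at -215 to -208 and a STAT match at -180 to -172. The IL6 window held an NF-kappaB match at -73 to -64 and a C/EBP match at -155 to -148, and that of IL11 an AP-1 match at -96 to -90. No 2 of these matches overlapped. Of 35116 RefSeq promoter windows of that length, 9.96% held the NF-kappaB motif, 6.57% AP-1, 9.05% C/EBP, 6.57% STAT and 10.7% TATA. These are matches of letters, not measured sites of binding.

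The genes spanned a wide range of levels. In shHOTAIR the order by mean was IL6ST (246 FPKM), IL1B (184), CSF1 (24.7), LIF (14.3), IL1A (11.5), CSF3 (8.34), IL11 (5.36), IL6 (3.02), CSF2 (1.17) and IL1R1 (0.653). In shCtrl it was IL6ST (315 FPKM), IL1B (149), IL1A (31.5), LIF (21.0), CSF1 (15.7), CSF3 (9.46), IL6 (4.79), CSF2 (2.64), IL11 (2.63) and IL1R1 (1.26). Among neighbours in these orders, CSF2 and IL11 in shCtrl were the only pair whose libraries overlapped. Between the groups IL1A and CSF1 exchanged places, IL1A standing below LIF in shHOTAIR and above it in shCtrl, and CSF1 the other way round. Against the 11587 tested protein-coding genes, IL6ST was above 95.8% of them in shHOTAIR and 96.9% in shCtrl, and IL1B above 93.8% in shHOTAIR and 91.5% in shCtrl.

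**Figure D1:**
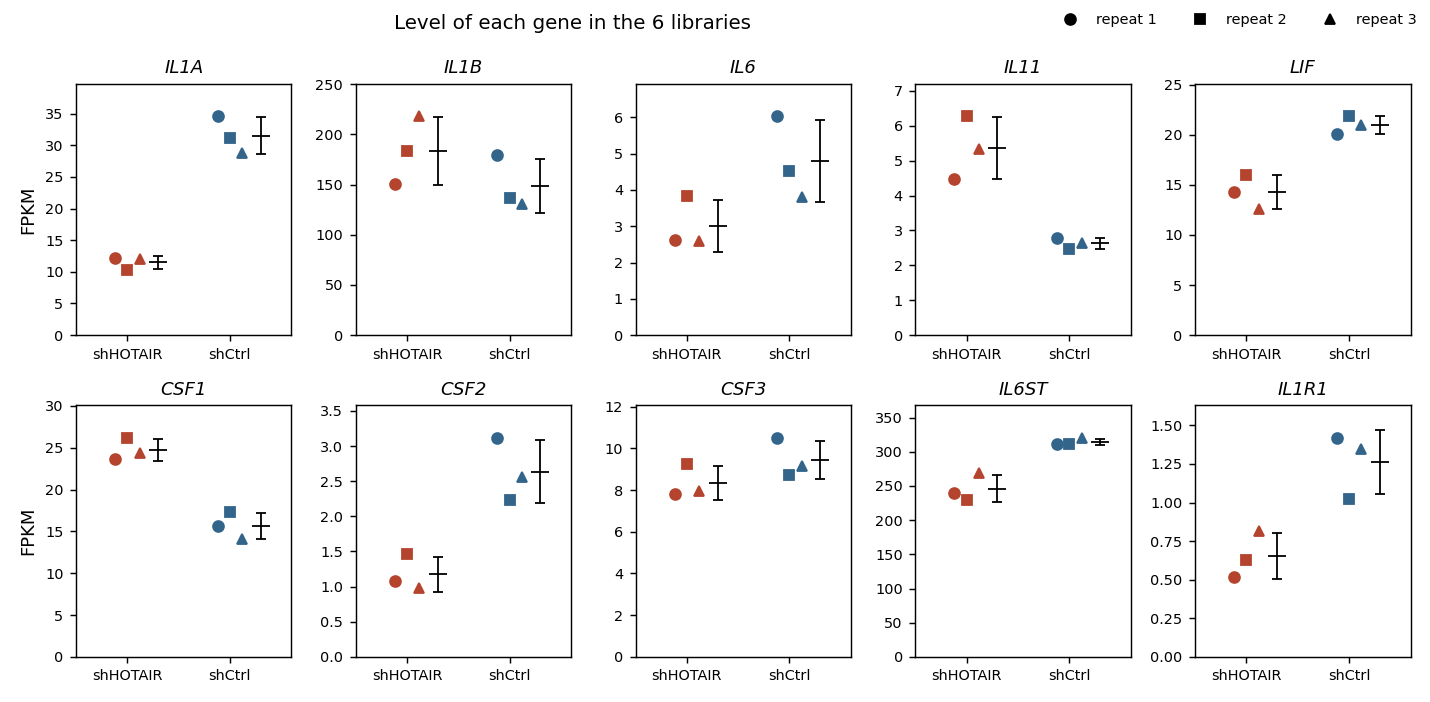
FPKM of the 10 genes in each library, shHOTAIR in red and shCtrl in blue, with the repeat shown by the symbol and the mean ± SD of 3 libraries as a black bar; each panel has its own linear axis from 0. The groups are separate for IL1A, IL11, LIF, CSF1, CSF2, IL6ST and IL1R1 and overlap for IL1B, IL6 and CSF3.

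The groups were compared with limma on log2(FPKM + 1), on the 15934 genes that averaged 1 FPKM or more across the 6 libraries, and genes with a Benjamini-Hochberg adjusted p below 0.05 passed. Of the 10 genes 9 passed that minimum, and IL1R1, with a mean of 0.958 FPKM, did not. Of these 9, 6 passed the test, 2 higher and 4 lower in shHOTAIR. Over all genes tested 23.8% passed, 11.5% higher and 12.4% lower. Without shCtrl 3 the count was 3 of the 9, and over all genes it was 2470 in place of 3797, and 2508 without shCtrl 1. The median log2 change of the 9 was -0.36, beside -0.03 over all genes tested. The libraries of the groups were separate in 6 of the 9, where the share over all genes tested was 43.0%. In bulk RNA, fewer cells that express a gene and less of its RNA per cell cannot be told apart.

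Among the IL-1 ligands, IL1A fell while its neighbour IL1B did not pass the test. IL1A (ENSG00000115008, chromosome 2, 112773915 to 112784590 on GRCh38, minus strand) encodes IL-1α, which is active as a precursor and is released by damaged cells. It stood at 12.2, 10.3 and 12.04 FPKM in shHOTAIR 1, 2 and 3, against 34.6, 31.2 and 28.8 FPKM in shCtrl 1, 2 and 3. All 3 shHOTAIR libraries lay far below all 3 shCtrl libraries. The means were 11.5 ± 1.07 FPKM in shHOTAIR and 31.5 ± 2.90 FPKM in shCtrl (SD, n = 3 each), a ratio of 0.366, and the log2 change of -1.38 (SE 0.0971, limma adjusted p = 0.00109) was lower than that of all but 0.578% of the protein-coding genes tested. The call held without any 1 library, with log2 changes of -1.44 to -1.30.

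IL1B (ENSG00000125538, chromosome 2, 112829751 to 112836903, minus strand) encodes IL-1β, whose precursor has to be cleaved by a protease such as caspase-1 before it can bind the receptor. Its 3 values in shHOTAIR were 150, 183 and 218 FPKM, against 179, 137 and 131 FPKM in shCtrl. The lowest shHOTAIR library was below the highest shCtrl library, so the groups overlapped. The log2 change of 0.30 did not pass (limma adjusted p = 0.284), and its 95% interval ran from -0.15 to 0.75. IL1B was the ligand with the highest level in both groups.

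The share of IL-1α message relative to IL-1β message was therefore lower in every shHOTAIR library. The ratio of IL1A to IL1B FPKM, which does not depend on the scaling of a library, was 0.0813, 0.0562 and 0.0552 in shHOTAIR and 0.193, 0.228 and 0.221 in shCtrl. For the log2 ratios, exact permutation (two-sided) gave p = 0.1, the smallest p that 3 against 3 allow. This ratio and those below were chosen after the values were seen.

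Within 2 Mb of IL1A there were 17 other tested protein-coding genes, of which 0 were higher and 4 lower by limma, with log2 changes between -0.65 and 0.30, while 12.4% of all genes tested were lower. IL1A thus lay outside the range of its neighbours. The median over the 50 nearest tested protein-coding genes was -0.08 around IL1A and -0.10 around IL1B. After these regional values were subtracted in each library, IL1A kept a log2 change of -1.30 (limma adjusted p = 0.000973), and that of IL1B was 0.40 (adjusted p = 0.209).

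The receptor gene IL1R1 (ENSG00000115594, chromosome 2, 102064544 to 102179874, plus strand), which encodes the signalling chain for both ligands, was expressed at a very low level. Its values were 0.519, 0.627 and 0.813 FPKM in shHOTAIR, against 1.42, 1.02 and 1.35 FPKM in shCtrl. The groups did not overlap, which was so for 26.6% of the 36141 genes above 0 in any library. In a fit of those 36141 genes the log2 change of -0.45 did not pass (limma adjusted p = 0.124), and the exact permutation test of the FPKM values gave p = 0.1, the smallest it allows. These values rest on about 103 to 214 fragments per library.

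**Figure D2:**
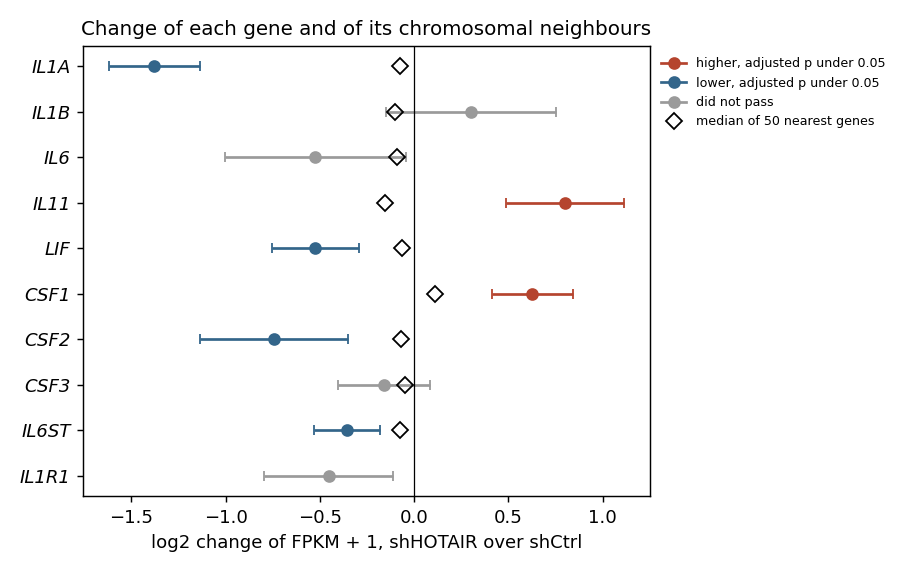
Log2 change of FPKM + 1, shHOTAIR over shCtrl, for each gene (points) with its 95% interval from limma (bars), and the median change of the 50 nearest tested protein-coding genes (open diamonds; IL1R1, from the fit of all genes above 0, has none). IL1A, LIF, CSF2 and IL6ST lie left of 0 and IL11 and CSF1 right of it, each with an interval that does not reach its diamond.

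The ligands of the IL-6 family differed in direction. IL11 (ENSG00000095752, chromosome 19, 55364389 to 55370463, minus strand), which encodes a cytokine linked to bone metastasis of breast cancer cells, had 4.48, 6.27 and 5.34 FPKM in shHOTAIR, against 2.79, 2.47 and 2.63 FPKM in shCtrl. Every shHOTAIR library was above every shCtrl library. The mean was 5.36 ± 0.894 FPKM in shHOTAIR and 2.63 ± 0.156 FPKM in shCtrl (SD, n = 3 each), a ratio of 2.04, with a log2 change of 0.80 (SE 0.125, limma adjusted p = 0.00896). The neighbours of IL11 on chromosome 19 had a median of -0.15, and relative to them its log2 change was 0.95 (adjusted p = 0.00496). Without any 1 library the adjusted p stayed at or below 0.0393.

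LIF (ENSG00000128342, chromosome 22, 30240447 to 30246851, minus strand) encodes leukemia inhibitory factor, known for keeping mouse embryonic stem cells undifferentiated. It fell to 14.3, 16.0 and 12.6 FPKM in shHOTAIR, against 20.0, 21.8 and 21.0 FPKM in shCtrl, with no overlap. The log2 change was -0.52 (SE 0.0933, limma adjusted p = 0.0132) and the ratio of means 0.683. It no longer passed when either shCtrl 2 or shCtrl 3 was removed (adjusted p up to 0.0567). With the regional values subtracted its log2 change was -0.46 (adjusted p = 0.0312). An antisense gene that overlaps LIF, AC004264.1, averaged 3.54 FPKM in shHOTAIR and 5.17 FPKM in shCtrl. No source used here gives the strand setting of the counting, so reads of overlapping genes cannot be told apart.

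IL6 (ENSG00000136244, chromosome 7, 22725884 to 22732002, plus strand), the founding member of the family and an inducer of the acute phase response, had 2.63, 3.85 and 2.58 FPKM in shHOTAIR and 6.03, 4.53 and 3.82 FPKM in shCtrl. The second shHOTAIR library stood just above the lowest shCtrl library. The log2 change of -0.52 was the same in size as that of LIF, but with an SE of 0.193 it did not pass (limma adjusted p = 0.110, 95% interval -1.003 to -0.04 before adjustment). Over the alternatives its adjusted p ranged from 0.0903 to 0.250. The antisense gene AC073072.1, which overlaps IL6, averaged 0.275 FPKM in shHOTAIR and 0.605 FPKM in shCtrl.

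The ratio of IL11 to IL6 FPKM was 1.70, 1.63 and 2.07 in the shHOTAIR libraries and 0.462, 0.546 and 0.690 in the shCtrl libraries, so IL11 exceeded IL6 in all shHOTAIR libraries and was below it in all shCtrl libraries (exact two-sided permutation p = 0.1, the smallest possible).

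The shared receptor chain IL6ST (ENSG00000134352, chromosome 5, 55935095 to 55994993, minus strand) was the most abundant of the 10 messages. It had 240, 230 and 268 FPKM in shHOTAIR, against 312, 312 and 320 FPKM in shCtrl, with no overlap and a spread in shCtrl of only 4.73 FPKM (SD, n = 3). The ratio of means was 0.782 and the log2 change -0.36 (SE 0.0697, limma adjusted p = 0.0179). The call was lost without shHOTAIR 1, shCtrl 1, shCtrl 2 or shCtrl 3 (adjusted p up to 0.0626). AC008914.1, an antisense gene inside its span, averaged 42.6 FPKM in shHOTAIR and 58.9 FPKM in shCtrl. Among the 14 tested protein-coding neighbours within 2 Mb 1 was higher and 4 were lower, where 11.5% of all genes tested were higher and 12.4% lower. With the regional values subtracted the log2 change of IL6ST was -0.28 (adjusted p = 0.0330).

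**Figure D3:**
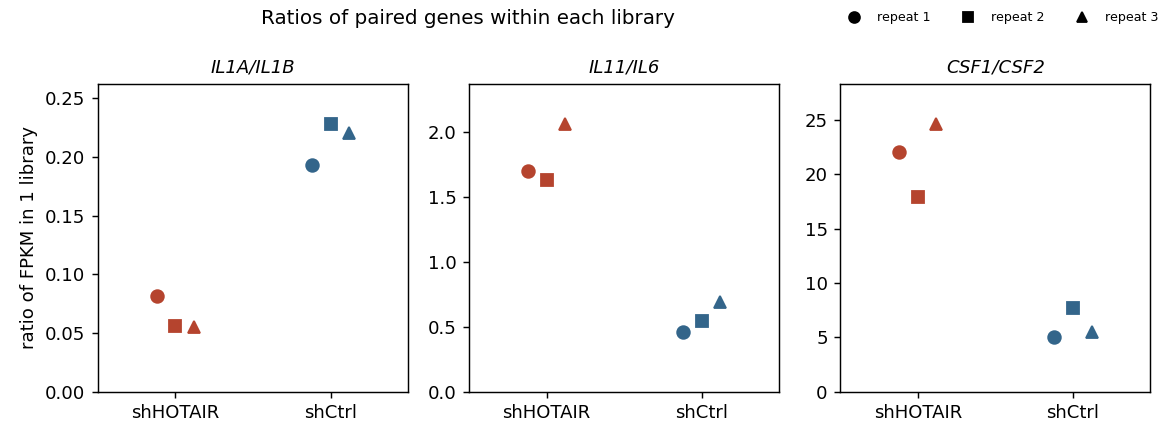
Ratio of FPKM within each library for IL1A to IL1B, IL11 to IL6 and CSF1 to CSF2, with shHOTAIR (red) left of shCtrl (blue), symbols for the repeats and linear axes from 0. The groups are separate in each panel, with shHOTAIR lower for IL1A/IL1B (0.0552 to 0.0813 against 0.193 to 0.228) and higher for the other 2 ratios.

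The colony-stimulating factors went in different directions as well. CSF1 (ENSG00000184371, chromosome 1, 109910242 to 109930992, plus strand), the growth factor of macrophages, had 23.6, 26.1 and 24.3 FPKM in shHOTAIR, against 15.6, 17.3 and 14.1 FPKM in shCtrl. The groups did not overlap, with means of 24.7 ± 1.30 FPKM in shHOTAIR and 15.7 ± 1.57 FPKM in shCtrl (SD, n = 3 each). The ratio of means was 1.57 and the log2 change 0.63 (SE 0.0859, limma adjusted p = 0.00594). It held without any 1 library (adjusted p at most 0.0310). Of its 35 tested neighbours within 2 Mb, 7 were higher, each by less than CSF1, and 1 was lower, 8 calls where 23.8% of all genes tested passed. The median over the 50 nearest genes was 0.11, and with those regional values subtracted the log2 change was 0.52 (adjusted p = 0.0179).

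CSF2 (ENSG00000164400, chromosome 5, 132073790 to 132076170, plus strand), which encodes GM-CSF, a factor for granulocytes and macrophages, was near the lower limit of the genes tested. It had 1.07, 1.46 and 0.987 FPKM in shHOTAIR, against 3.11, 2.24 and 2.56 FPKM in shCtrl. The highest shHOTAIR library was below the lowest shCtrl library. The ratio of means was 0.445, while the log2 change on the scale of FPKM + 1, which shrinks low values, was -0.74 (SE 0.158, limma adjusted p = 0.0237). With an added 0.01 in place of 1 it was -1.17. CSF2 has a short transcript, and its values rest on about 27.8 to 63.1 fragments per library, so counting alone gives a coefficient of variation of 12.6% to 19.0%. The call was lost without shHOTAIR 1, shHOTAIR 3, shCtrl 1 or shCtrl 3 (adjusted p up to 0.0576) and without the filter on low values (0.0550). With the regional values subtracted it was -0.67 (adjusted p = 0.0406).

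CSF3 (ENSG00000108342, chromosome 17, 40015361 to 40017813, plus strand), which encodes the neutrophil growth factor G-CSF, did not pass the test. It had 7.81, 9.28 and 7.94 FPKM in shHOTAIR and 10.5, 8.74 and 9.14 FPKM in shCtrl, and the groups overlapped. The log2 change was -0.16 (limma adjusted p = 0.289), with a 95% interval from -0.41 to 0.08. The ratio of CSF1 to CSF2 was 22.0, 17.9 and 24.6 in shHOTAIR and 5.02, 7.73 and 5.52 in shCtrl, and that of CSF3 to CSF2 was 7.28, 6.35 and 8.05 in shHOTAIR and 3.37, 3.91 and 3.57 in shCtrl. Neither pair of groups overlapped (exact two-sided permutation p = 0.1 for each, the smallest possible). Each ratio has CSF2 as its denominator, which was itself separate between the groups, so neither is independent of the change of CSF2.

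**Figure D4:**
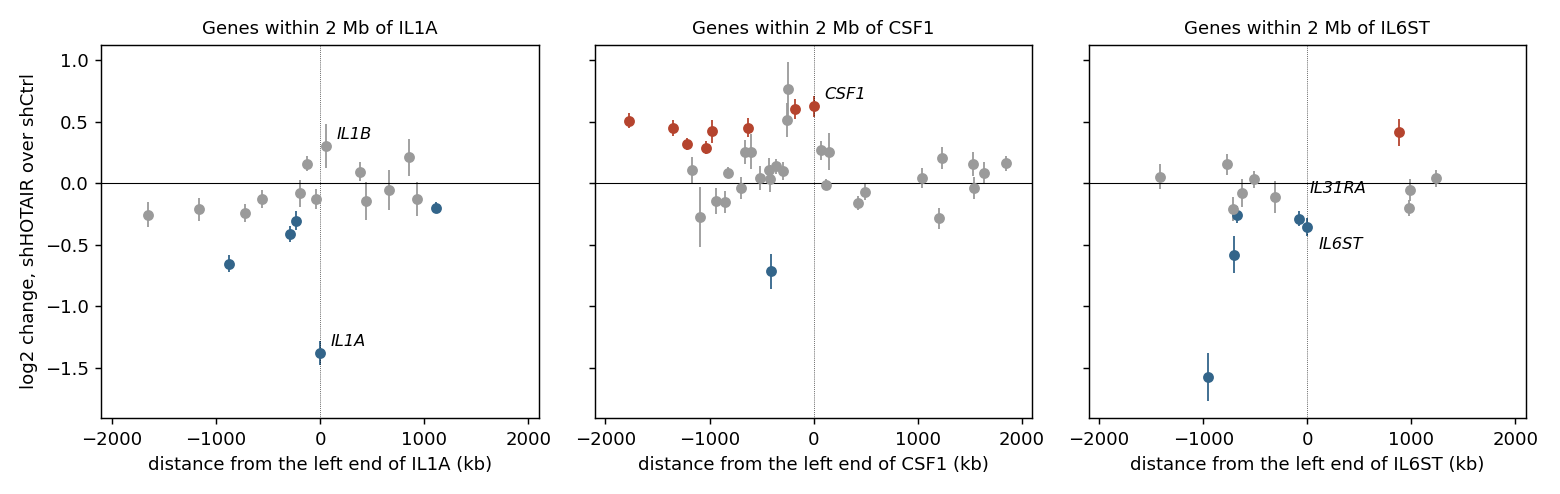
Log2 change (points) with its SE (bars) of the tested protein-coding genes within 2 Mb of IL1A, CSF1 and IL6ST, by distance from the lower end of each gene in kb; red and blue mark genes higher and lower in shHOTAIR by limma, grey those that did not pass. IL1A, at -1.38, is below all 17 neighbours, CSF1 has 7 neighbours of 35 that were also higher, and IL6ST lies beside IL31RA, which was also lower. Over all genes tested 11.5% were higher and 12.4% lower.

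The wider pathways were described with 134 further genes in 13 lists, of which 99 reached 1 FPKM. Of the 99, 40 passed the test (40.4%, where all genes tested gave 23.8%), 17 higher and 23 lower. A gene can stand in more than 1 list. The lists were chosen with earlier results known, so the share is a description. Counts given below for single lists stand beside the same 23.8%, and no list was tested as a set. Of the 40 calls, 3 were genes that met the 1 FPKM minimum only through the group in which they were higher, SIGIRR, FLT3LG and NFATC1, so that a difference between the groups was a condition of their being tested. Of the 40, 23 held without any 1 library, and without shHOTAIR 2 the count was 26.

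Besides IL1A and IL1B, the IL-1 family was represented by IL18, a ligand that is matured by caspase-1. IL18 fell to 43.7, 40.1 and 43.3 FPKM in shHOTAIR, against 82.2, 71.9 and 83.5 FPKM in shCtrl (log2 change -0.88, limma adjusted p = 0.00165). The natural receptor antagonist IL1RN was listed at 0 in all 3 shHOTAIR libraries and at 0.363, 0.299 and 0.510 FPKM in shCtrl, too low to be tested. The other 7 of the 11 ligands in the list did not exceed 0.760 FPKM in any library.

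Receptor chains of the family moved both ways. IL1RAP, which completes the IL-1 receptor, rose to 29.1 ± 1.74 FPKM in shHOTAIR, against 17.6 ± 1.58 FPKM in shCtrl (SD, n = 3 each; limma adjusted p = 0.00396). The IL-33 receptor IL1RL1, a neighbour of IL1R1 on chromosome 2, fell to 18.7 ± 0.809 FPKM in shHOTAIR, against 32.8 ± 5.33 FPKM in shCtrl (adjusted p = 0.00866 in limma). SIGIRR, an inhibitory member, rose to 2.21 ± 0.535 FPKM in shHOTAIR, against 0.895 ± 0.0708 FPKM in shCtrl (limma adjusted p = 0.0294), a call lost without shHOTAIR 1 or any 1 shCtrl library (up to 0.0649) and without the filter on low values (0.0585). IL18R1 averaged 4.90 FPKM in shHOTAIR and 3.11 FPKM in shCtrl and did not pass (limma adjusted p = 0.0690), though it did after regional centring (0.0418). The decoy receptor IL1R2 did not exceed 0.289 FPKM.

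Of 13 tested signalling genes downstream of the IL-1 receptor, 1 rose and 3 fell. The kinase IRAK1 rose (log2 change 0.48) and the kinases CHUK (-0.88) and IRAK2 (-0.37) and the ubiquitin ligase TRAF6 (-0.50) fell. With regional centring IRAK1 (limma adjusted p = 0.203), CHUK (0.137) and IRAK2 (0.0593) no longer passed. IRAK2 lost its call without any 1 library (adjusted p up to 0.0775) and TRAF6 when any library other than shHOTAIR 1 was removed (up to 0.0931). Of 10 tested genes of IL-1 processing and release, the protease genes CAPN2 (log2 change 0.40) and CASP8 (0.84) and the inflammasome sensor NLRP3 (0.78) rose and the inflammatory caspase CASP4 fell (-0.76). The NLRP3 call was lost without shHOTAIR 2, shHOTAIR 3, shCtrl 2 or shCtrl 3 (adjusted p up to 0.0750). CASP1, the enzyme that cleaves IL-1β, averaged 2.56 ± 1.48 FPKM in shHOTAIR and 5.62 ± 1.19 FPKM in shCtrl and did not pass (limma adjusted p = 0.0830), and the inflammasome adaptor PYCARD did not exceed 0.157 FPKM. These last 2 genes were singled out after their values were seen.

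Around IL6ST, the receptor list of the IL-6 family held 7 tested genes, 1 higher and 2 lower. OSMR, which pairs with gp130 in the oncostatin M receptor, rose to 41.8, 44.4 and 40.3 FPKM in shHOTAIR, against 32.4, 32.6 and 32.9 FPKM in shCtrl (log2 change 0.36, limma adjusted p = 0.00734). RICTOR, which overlaps OSMR on the opposite strand, averaged 18.1 FPKM in shHOTAIR and 19.8 FPKM in shCtrl. IL31RA, next to IL6ST on chromosome 5, fell by 0.29 on the log2 scale, a call lost without any library but shHOTAIR 1 (adjusted p up to 0.0831), and regional centring ended it too (0.0923). The ligand-specific chains LIFR (19.2 FPKM in shHOTAIR and 16.8 FPKM in shCtrl), IL6R (4.32 FPKM in shHOTAIR and 2.91 FPKM in shCtrl), IL11RA (1.80 FPKM in shHOTAIR and 1.602 FPKM in shCtrl) and IL27RA (3.98 FPKM in shHOTAIR and 5.44 FPKM in shCtrl) did not pass, with adjusted p from 0.0553 to 0.715 in limma. MIR3650, a microRNA gene that overlaps LIFR on the same strand, averaged 64.1 FPKM in shHOTAIR and 305.7 FPKM in shCtrl. GALT, which overlaps IL11RA on the same strand, averaged 14.5 FPKM in shHOTAIR and 14.7 FPKM in shCtrl. CNTFR was listed at 0 in every library.

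Of the remaining ligands of the IL-6 family, CLCF1 averaged 9.60 FPKM in shHOTAIR and 7.87 FPKM in shCtrl. CNTF averaged 1.59 FPKM in shHOTAIR and 1.71 FPKM in shCtrl, and CTF1 0.892 FPKM in shHOTAIR and 1.12 FPKM in shCtrl. Of these 3 genes 0 passed (limma adjusted p from 0.157 to 0.777). CLCF1 passed with regional centring (limma adjusted p = 0.0203). It overlaps AP003419.1 on the same strand, which averaged 8.40 FPKM in shHOTAIR and 11.7 FPKM in shCtrl, and RAD9A on the opposite strand, at 15.8 FPKM in shHOTAIR and 21.3 FPKM in shCtrl. EBI3, a subunit of IL-27 with a mean below the filter, had 1.16, 1.63 and 1.66 FPKM in shHOTAIR and 0.533, 0.173 and 0.179 FPKM in shCtrl, without overlap. Oncostatin M itself, OSM, was listed at 0 in all shHOTAIR libraries and did not exceed 0.218 FPKM in shCtrl.

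Where 23.8% of all genes tested passed at an adjusted p of 0.05 in limma, 2 of 11 tested genes of the JAK-STAT list rose and 0 fell. They were the feedback inhibitors SOCS2 (log2 change 0.61) and SOCS3, which binds gp130. SOCS3 had 13.5, 15.5 and 17.6 FPKM in shHOTAIR and 11.1, 9.36 and 10.2 FPKM in shCtrl (limma adjusted p = 0.0197), a call lost without shHOTAIR 2, shHOTAIR 3, shCtrl 2 or shCtrl 3 (up to 0.0751). STAT5B, which carries signals of several cytokine receptors, did not pass (log2 change -0.16, limma adjusted p = 0.435). STAT3, singled out after its values were seen, was at 44.0 ± 6.81 FPKM in shHOTAIR and 42.5 ± 5.97 FPKM in shCtrl (SD, n = 3 each; limma adjusted p = 0.854). Of 11 tested STAT3 target genes, 3 rose and 3 fell. Besides SOCS3 the kinase gene PIM1 rose (log2 change 0.42), the AP-1 gene JUNB fell (-0.92) and the cyclin CCND1 fell (-0.27). The remaining calls, named after their values were seen, were the survival gene BCL2L1 (0.25) and FOS (-0.46), both lost without at least 5 of the 6 single libraries. The PIM1 call was lost without shHOTAIR 2, shHOTAIR 3, shCtrl 1 or shCtrl 2 (adjusted p up to 0.0623). The CCND1 call was lost without any 1 library (up to 0.109), and its adjusted p was 0.901 after regional centring.

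Receptors for the colony-stimulating factors were at very low levels apart from 1 chain. CSF2RA, the ligand-binding chain for GM-CSF, fell to 18.8, 16.5 and 17.4 FPKM in shHOTAIR, against 36.7, 30.3 and 32.5 FPKM in shCtrl (log2 change -0.87, limma adjusted p = 0.00254), and so moved in the same direction as its ligand CSF2. It held without any 1 library. The other 7 chains of the list, among them CSF1R and CSF3R and the signalling chain CSF2RB that CSF2RA needs, did not exceed 0.232 FPKM. Among the other ligands of that list FLT3LG averaged 0.770 FPKM in shHOTAIR and 1.99 FPKM in shCtrl (limma adjusted p = 0.0337), a call lost without shHOTAIR 1, shHOTAIR 3, shCtrl 1 or shCtrl 3 (up to 0.0699), and its adjusted p was 0.0781 after regional centring and 0.0599 without the filter on low values. AC010619.1, which overlaps it on the same strand, averaged 5.56 FPKM in shHOTAIR and 6.80 FPKM in shCtrl. KITLG averaged 5.24 FPKM in shHOTAIR and 4.004 FPKM in shCtrl and did not pass (limma adjusted p = 0.0926).

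Transcription factors known to act on cytokine promoters were all measurable, and of the 22 tested 4 rose and 10 fell. The list's median log2 change was -0.30. NFKB2, an NF-kappaB subunit, fell to 13.6, 14.5 and 13.95 FPKM in shHOTAIR, against 42.7, 37.1 and 41.2 FPKM in shCtrl (log2 change -1.46, limma adjusted p = 0.000406). It lies on chromosome 10 among genes with a regional median of -0.58, and it passed after regional centring (adjusted p = 0.00128). EGR1, an immediate early factor, fell to 3.75 ± 0.346 FPKM in shHOTAIR, against 11.8 ± 0.482 FPKM in shCtrl (limma adjusted p = 0.000589). NFATC1 rose to 3.09 ± 0.183 FPKM in shHOTAIR, against 0.0948 ± 0.0195 FPKM in shCtrl (limma adjusted p = 0.00117, and 0.00204 without the filter on low values, which it met only through shHOTAIR). NFATC2 fell to 5.12 FPKM in shHOTAIR, against 8.90 FPKM in shCtrl (limma adjusted p = 0.00370), and NFAT5 did not pass (0.877). NFATC2 and NFAT5 were named after their values were seen. JUNB, described above, had 18.4, 18.2 and 20.0 FPKM in shHOTAIR, against 40.4, 32.0 and 37.8 FPKM in shCtrl.

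The other genes of this list from the NF-kappaB and AP-1 families were also read, a choice made after the values were seen. Besides NFKB2, RELB (log2 change -0.98), RELA (-0.37) and REL (-0.39) fell, while NFKB1 (0.18) did not pass (limma adjusted p = 0.129). RELA lost its call with regional centring (adjusted p = 0.168), and REL lost it there (0.132) and without any 1 library (up to 0.0917). Of the AP-1 genes, JUN (0.38), FOSL1 (0.33) and FOSL2 (0.38) rose, and JUNB (-0.92), JUND (-0.79), FOS (-0.46) and ATF3 (-1.33) fell, while ATF2 (-0.04) did not pass (limma adjusted p = 0.742). JUN lost its call with regional centring (adjusted p = 0.0644), FOSL1 without shHOTAIR 2, shHOTAIR 3, shCtrl 1 or shCtrl 2 (up to 0.0580), JUND without shHOTAIR 1, shHOTAIR 2 or shCtrl 3 (up to 0.0624) and FOS without any 1 library (up to 0.132). The IL1A and IL11 windows printed above both held an AP-1 match, and these 2 genes moved in opposite directions. The part of AP-1 in either change was not tested.

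Proteins that bind AU-rich elements control the half-life of many cytokine messages. The list read here covered the decay and stability of such messages, not only proteins that bind these elements. Of its 14 tested genes HNRNPD rose (log2 change 0.59) and TIAL1 (-0.69), MAPKAPK2 (-0.33) and RC3H2 (-0.43) fell. With regional centring HNRNPD (limma adjusted p = 0.103) and TIAL1 (0.159) did not pass. MAPKAPK2 was lost without any 1 shCtrl library (adjusted p up to 0.0525), and RC3H2 without any 1 shHOTAIR library and without shCtrl 1 (up to 0.0731). Of 4 genes for the shedding of receptors and ligands ADAM10 rose (log2 change 0.32), a call lost without any library but shHOTAIR 3 (adjusted p up to 0.127), while ADAM17 (0.10), RHBDF1 (-0.12) and RHBDF2 (0.25) did not pass.

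**Figure D5:**
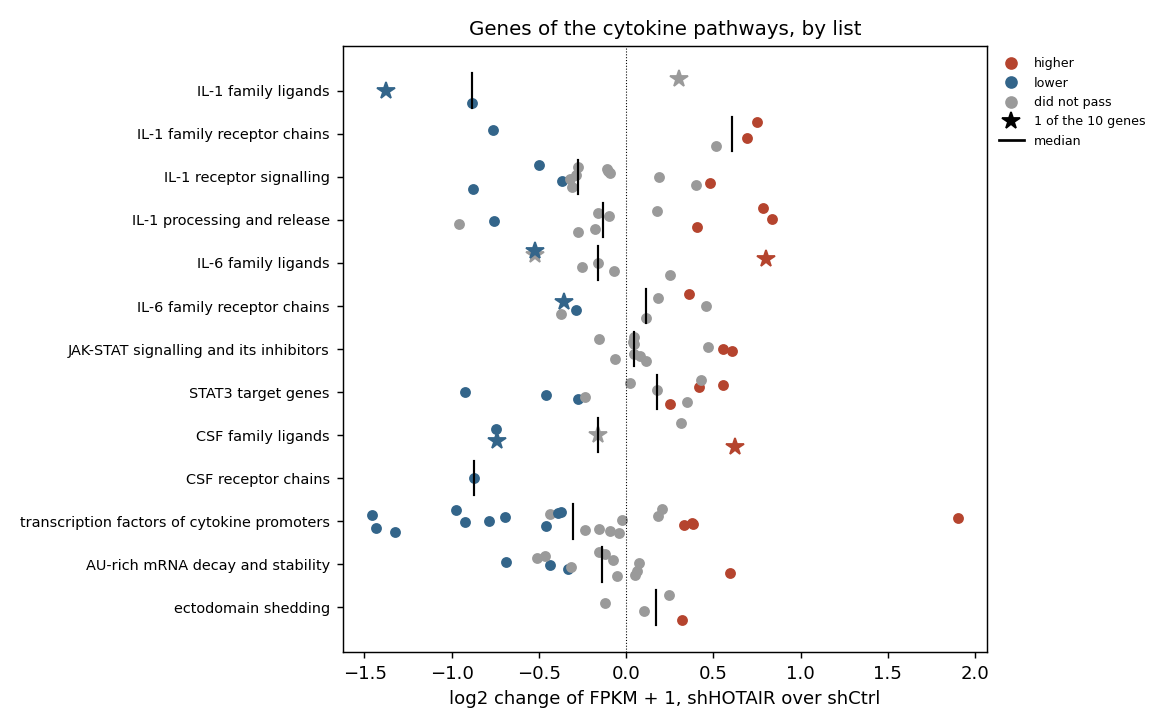
Log2 change of FPKM + 1, shHOTAIR over shCtrl, of each tested gene (points; stars are the 9 tested of the 10 genes described here) in 13 pathway lists, red and blue for genes higher and lower by limma, grey for those that did not pass, and a black line at the list's median. The transcription factor list, with 10 genes lower and 4 higher, reaches from -1.46 (NFKB2) to 1.90 (NFATC1, below 1 FPKM in shCtrl).

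For the 3 genes with the highest mean over all 6 libraries (IL6ST, IL1B and IL1A, the last at 21.5 FPKM just above CSF1 at 20.2 FPKM and below it in shHOTAIR), the protein-coding genes with the most similar profile over the 6 libraries were named by Pearson's r of log2(FPKM + 1), as a description. IL6ST was most like NARF (r = 0.993), PRPF18 (0.992) and GET4 (0.991). IL1B was most like POC1B-GALNT4 (0.994), ARPC2 (0.992) and KAT5 (0.986), and IL1A most like DNAJC10 (0.9995), NAV3 (0.999) and TBC1D22B (0.999). Of 11586 genes compared, 318 for IL6ST, 37 for IL1B and 875 for IL1A had an r above 0.95. The points share 6 libraries in 2 groups, so any gene with a large difference between the groups comes close to any other of the same direction.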

How the data were processed

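Poly(A) RNA from 6 libraries, 3 shHOTAIR and 3 shCtrl, was sequenced, and the authors deposited 1 table of FPKM values for the whole series. The submitters' processing notes name TopHat2 2.0.13, DESeq and GRCh38. The program that made the FPKM values, its annotation and its strand setting appear in no source used here. Groups were taken from the labels. The genes, pathway lists and tests were chosen with earlier results of these data known.

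From the deposited FPKM values, log2(FPKM + 1) was fitted in limma 3.58.1 (R 4.3.3) with group as the only term and an intensity trend, on 15934 genes averaging 1 FPKM or more, with Benjamini-Hochberg adjustment over them. A log2 change on this scale understates the change of low genes. The fit was tested on simulated data. Single values and ratios were compared by an exact two-sided permutation test over samples, whose smallest p with 3 against 3 is 0.1. For regional centring, the median change of the 50 nearest tested protein-coding genes was subtracted in each library. Gene positions came from GENCODE 29, matched to 56807 of 65198 rows.

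Depth was not stated. The step between low values of single-transcript genes longer than 1500 bases gave the fragments behind 1 FPKM, and 75.7% to 80.2% of low values lay within 0.1 fragment of a whole number, too few for a count test. Fragment numbers are estimates from the longest transcript, and their errors cover counting only. Nothing in the labels says that repeats were separate cultures, so p-values measure the spread between these samples, which may be technical. No 2 libraries shared more than 0.00628% of values above 0, and r of log2(FPKM + 1) was 0.9904 to 0.9942 within groups and 0.9656 to 0.9733 between them.

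Named genes were all 10 genes, HOTAIR, every gene of the ligand and receptor lists with a mean of at least 1 FPKM and the 4 genes with the smallest p of each other list. Some genes that this rule names are not reported here. Genes below that mean and others named besides were chosen after their values were seen. The 16 alternatives tried were other pseudocounts, filters, scalings and variance settings, a replicate block, regional centring and leaving out each library.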

Additional observations from a re-analysis of the deposited data

How the results depend on the processing

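Each alternative kept the direction of all 9 tested genes. With the main settings 6 of them, 40 of the 99 tested pathway genes and 3797 of all genes passed. Leaving out 1 library at a time gave 3 to 6, 26 to 31 and 2470 to 3159. The count of all genes was 2508 without shCtrl 1 and 2470 without shCtrl 3, that of the 9 genes was 3 without shCtrl 3 and that of pathway genes 26 without shHOTAIR 2. Regional centring left 2394 of all genes. With the replicate number as a block, 3 of the 9 genes (IL1A, LIF and CSF1), 21 pathway genes and 1740 of all genes passed. The deviations of libraries with the same number from their group means correlated at -0.02, 0.01 and -0.03. These values show no shared deviation by number, but they cannot tell whether such repeats were handled together. IL1A and CSF1 passed under all 16 alternatives. A minimum mean of 5 FPKM removed IL6, IL11 and CSF2 from the test, and IL1R1 was tested only without a filter. Scaling by the median of ratios gave 1972 genes higher and 1780 lower, against 1829 and 1968 without it. The cause was not tested for any of these shifts. With 3 libraries a group, and about 27.8 to 63.1 fragments per library for CSF2, small changes of low genes could have been missed. The smallest change that could be detected in such genes was not tested.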
